A study of Canis lupus familiaris with 6 samples.

Results

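This report describes 8 genes, the PRL phosphatases PTP4A1, PTP4A2 and PTP4A3, the magnesium transporters CNNM1, CNNM2, CNNM3 and CNNM4, and the small GTPase ARL15, which binds CNNM proteins. They were chosen by name, and all 8 were found among the 41401 gene symbols of the series. The series measured RNA in MDCK, an established dog kidney line that grows as a polarised epithelium, to follow what happens as cells lose magnesium and die by an NF-κB-dependent route. PRL2-/-; PRL1+/- clone 1 (D7) and PRL2-/-; PRL1+/- clone 2 (F22) received PRL1 siRNA or control siRNA, and so did wild-type (WT) MDCK cells. Each of these 3 lines gave 1 library per siRNA, 6 in all, from RNA taken 18 h after the second transfection. Each mutant line is a single clone. Neither the means of disrupting the alleles nor the number of cultures per line is stated in the labels, so p-values measure only the spread between these libraries. The authors deposited FPKM values, in which fragments are divided by the length of the transcript and the number of fragments mapped in the library.

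PRL proteins are small phosphatases anchored to membranes by a prenyl group at their C-terminal end. They bind the cytosolic CBS domains of CNNM proteins, which move magnesium across the basolateral membrane of epithelia, and this binding restrains magnesium efflux from the cell. In other cell lines PRL protein increases when magnesium is scarce, and ARL15 forms complexes with the same CNNM proteins.

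Depth appeared similar between libraries by an estimate from low FPKM values, taken to come in steps of a single fragment. Their most frequent ratio gave depths of 0.766 to 0.914 of that of the WT control library. Only 9.42% to 10.7% of the ratios lay there. In each line the PRL1 siRNA library was the shallower by this estimate, while absolute depth is unknown. Of the 6 kidney epithelial markers, each was at 3.08 FPKM or more in each library, with KRT8 the most abundant at up to 857 FPKM. They summed to 1133 to 1726 FPKM after PRL1 siRNA and 1150 to 1789 FPKM after control siRNA. In the siRNA comparison described below 2 of the 6 were called higher and 3 lower, where 17.6% and 21.7% of all genes were. The 3 leukocyte markers summed to 0.529 to 0.971 FPKM after PRL1 siRNA and 0.580 to 0.639 FPKM after control siRNA, with PTPRC and CD3E listed at 0 in all 6 libraries. The 3 endothelial markers summed to 0.899 to 1.14 FPKM after PRL1 siRNA and 0.752 to 1.21 FPKM after control siRNA. The 3 fibroblast markers summed to 0.0469 to 0.0634 FPKM after PRL1 siRNA and 0.0362 to 0.0725 FPKM after control siRNA. In these bulk samples, fewer cells of a type and less RNA per cell cannot be told apart.

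PTP4A2 and PTP4A1 were the abundant members. Over the 6 libraries PTP4A2 lay between 48.3 and 80.4 FPKM and PTP4A1 between 33.1 and 69.9 FPKM. After control siRNA PTP4A1 stood at places 1164 to 1366 when the genes of a library were ranked by FPKM. CNNM4 lay between 8.91 and 14.0 FPKM, CNNM3 between 6.03 and 9.25 FPKM and ARL15 between 4.25 and 5.43 FPKM. CNNM2 was near the lower limit of the tests, at 1.08 to 1.77 FPKM. The order CNNM4, CNNM3, ARL15, CNNM2, PTP4A3, CNNM1 held within each of the 6 libraries, although the ranges of CNNM4 and CNNM3 overlapped between libraries. PTP4A1 and PTP4A2 changed places: PTP4A1 was the higher of the pair only in clone 2 under control siRNA, at 1.23 times PTP4A2.

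The family members known mainly from other tissues were scarce. PTP4A3, whose PRL3 protein is best known from muscle, heart and metastatic tumours, was at 0.490 FPKM in clone 1, 0.175 in clone 2 and 0.230 in WT after PRL1 siRNA, against 0.413, 0.336 and 0.178 FPKM after control siRNA. It was higher after PRL1 siRNA in clone 1 and WT and lower in clone 2, and the groups overlapped. CNNM1, known mainly from brain and testis, was at 0.00376 FPKM in the control library of clone 1 and was listed at 0 in the other 5 libraries. Both had a mean below 1 FPKM, the minimum set for the tests, so 6 of the 8 genes were tested.

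**Figure D1:**
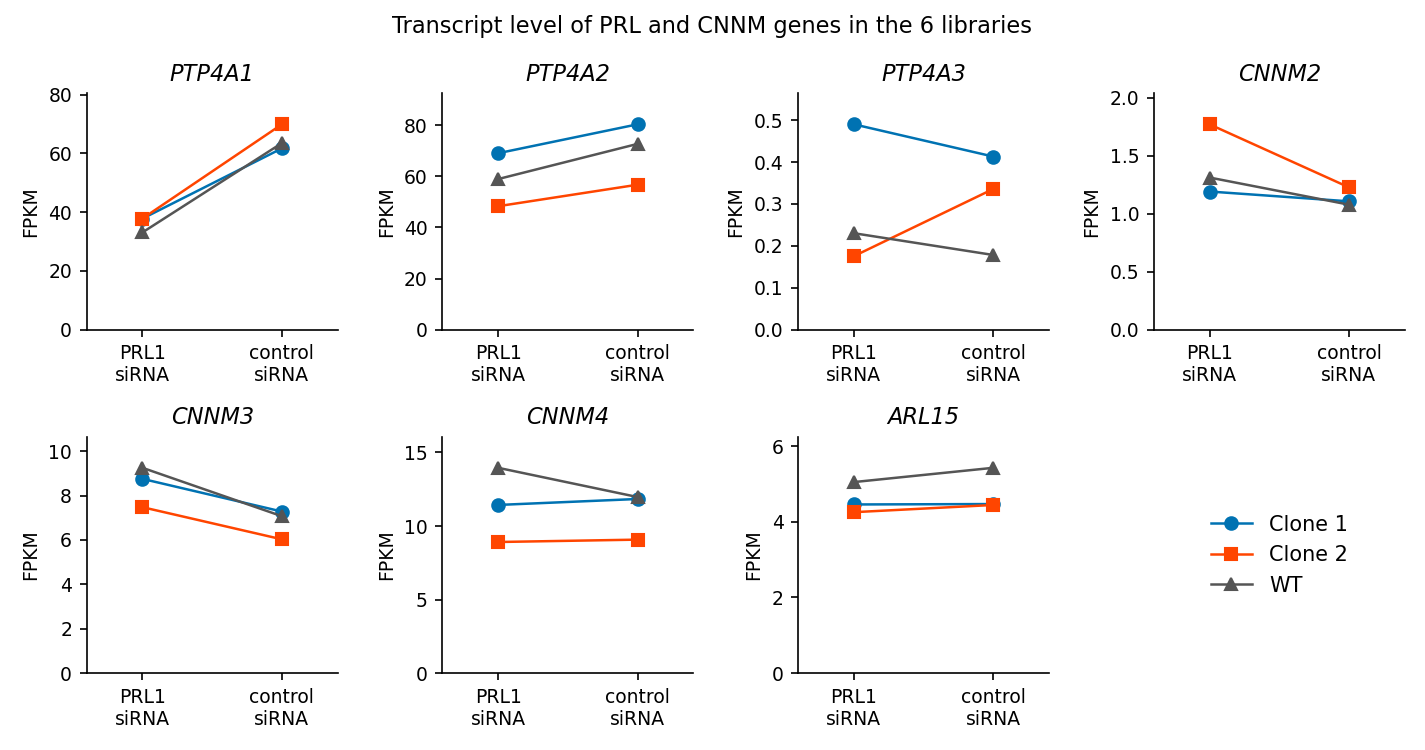
FPKM (vertical axis, starting at 0) of 7 of the 8 genes after PRL1 siRNA (left of each panel) and control siRNA (right), 1 point per library, with the libraries of a line joined. PTP4A1 lies at 33.1 to 37.8 FPKM after PRL1 siRNA and 61.7 to 69.9 FPKM after control siRNA, and CNNM3 at 7.48 to 9.25 and 6.03 to 7.28 FPKM. CNNM1, at 0.00376 FPKM or less, is not drawn.

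The first comparison asked how the genes responded to PRL1 siRNA. PTP4A1, the targeted transcript, fell to 55.8% of its control level on average, PTP4A2 fell by a smaller amount and CNNM3 rose. CNNM2, CNNM4 and ARL15 did not pass the test. In all, 2 of the 6 tested members fell and 1 rose. This comparison called many genes: limma on log2(FPKM + 1), with the line as a factor, called 39.3% of 12125 genes at an adjusted p under 0.05, 21.7% lower and 17.6% higher. A share of 3 in 6 members therefore lay near the background. The 3 include PTP4A1, the siRNA target, whose fall was sought by the design. Without 1 of the 4 clone libraries, whichever it was, the count of 4762 genes called became 1721 to 2450, and it was 1710 (14.1%) with genotype in place of line. The median log2 difference was -0.000904 over the 6 members and -0.01 over all genes tested.

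PTP4A1, the PRL1 gene, was at 37.8 FPKM in clone 1, 37.8 in clone 2 and 33.1 in WT after PRL1 siRNA, against 61.7, 69.9 and 63.5 FPKM after control siRNA. The 3 knockdown libraries lay below the 3 control libraries with no overlap, as for 16.2% of all genes tested. Of the control level, 55.8% ± 4.80 remained (SD, n = 3 lines), with 61.2% in clone 1, 54.1% in clone 2 and 52.1% in WT. On the log2(FPKM + 1) scale the difference was -0.83 ± 0.05 (SE, n = 3 lines, 95% interval -0.96 to -0.70, limma adjusted p = 0.00127). It was the 67th deepest fall among the 12125 genes tested, so the siRNA target was not the transcript that fell most.

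PTP4A2, the PRL2 gene, was at 69.1 FPKM in clone 1, 48.3 in clone 2 and 59.0 in WT after PRL1 siRNA, against 80.4, 56.7 and 72.7 FPKM after control siRNA. The groups overlapped, because the lines differed by more than the response, but the value was lower in each of the 3 lines, as for 35.8% of all genes. It kept 84.0% ± 2.61 of its control level (SD, n = 3 lines), and the 3 lines lay close together at 85.9%, 85.2% and 81.1%. The log2 difference was -0.25 ± 0.04 (SE, 95% interval -0.34 to -0.16, limma adjusted p = 0.00572). With genotype in place of line the adjusted p was 0.392, since that fit counts the difference between the clones as error. PTP4A1 and PTP4A2 encode similar proteins, and how the authors' quantification divided fragments that match both was not tested.

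CNNM3, a magnesium transporter of the CNNM family, was at 8.75 FPKM in clone 1, 7.48 in clone 2 and 9.25 in WT after PRL1 siRNA, against 7.28, 6.03 and 7.07 FPKM after control siRNA. The 3 knockdown libraries lay above the 3 control libraries with no overlap, as for 12.6% of all genes. The level was 125% ± 5.38 of control (SD, n = 3 lines), at 120% in clone 1, 124% in clone 2 and 131% in WT. The log2 difference was 0.28 ± 0.05 (SE, 95% interval 0.17 to 0.40, limma adjusted p = 0.00787). The adjusted p was 0.0539 without the control library of clone 1, 0.0545 without its knockdown library, 0.0578 with no filter on low genes and 0.1002 with genotype in place of line.

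CNNM4, the basolateral magnesium exporter of intestine and other epithelia, is the neighbour of CNNM3 among the protein-coding genes of the RefSeq annotation of assembly UU_Cfam_GSD_1.0. It was at 11.4 FPKM in clone 1, 8.91 in clone 2 and 14.0 in WT after PRL1 siRNA, against 11.8, 9.08 and 12.0 FPKM after control siRNA. The clones hardly differed between siRNAs, at 96.6% and 98.2% of control, while the WT library was at 117% of control. Over the 3 lines the log2 difference was 0.05 ± 0.06 (SE, 95% interval -0.11 to 0.20, limma adjusted p = 0.589), and it was -0.03 without either WT library. Within a library, the ratio of CNNM4 to CNNM3 FPKM was 1.31 in clone 1, 1.19 in clone 2 and 1.51 in WT after PRL1 siRNA, against 1.63, 1.51 and 1.69 after control siRNA. This ratio was lower after PRL1 siRNA in 3 of 3 lines, but its denominator, CNNM3, was called higher, so this is no separate result.

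CNNM2, which in kidney acts in the distal convoluted tubule, was at 1.19 FPKM in clone 1, 1.77 in clone 2 and 1.31 in WT after PRL1 siRNA, against 1.11, 1.23 and 1.08 FPKM after control siRNA. It was higher in each of the 3 lines, as were 31.6% of all genes, but by unequal amounts, at 108%, 144% and 122% of control, and the groups overlapped. The log2 difference of 0.18 ± 0.09 (SE, 95% interval -0.04 to 0.39) did not pass (limma adjusted p = 0.156). ARL15, which binds CNNM proteins and promotes their glycosylation, was at 4.46 FPKM in clone 1, 4.25 in clone 2 and 5.05 in WT after PRL1 siRNA, against 4.47, 4.44 and 5.43 FPKM after control siRNA. Its difference of -0.05 ± 0.05 (SE, 95% interval -0.17 to 0.08) did not pass either (limma adjusted p = 0.485).

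**Figure D2:**
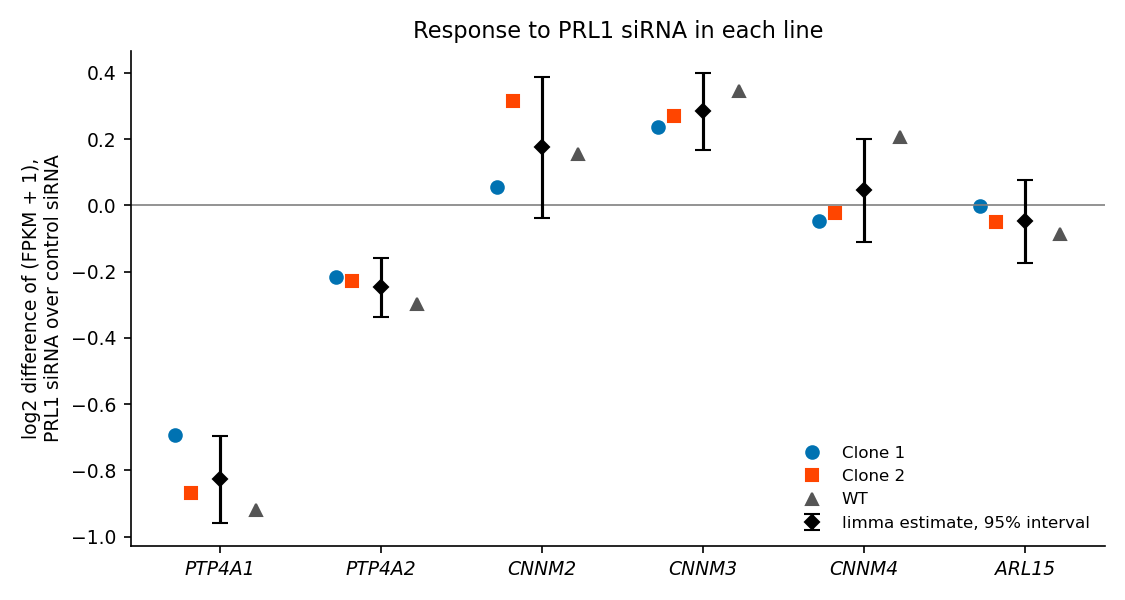
Difference between PRL1 siRNA and control siRNA on the log2(FPKM + 1) scale (vertical axis) for the 6 tested genes. Coloured points are the lines and black diamonds the limma estimate with its 95% interval. PTP4A1 lies at -0.83, PTP4A2 at -0.25 and CNNM3 at 0.28 with intervals that leave out 0, while the points of CNNM4 lie above 0 in WT and just below 0 in the clones.

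FPKM is scaled by transcript length, so members can be summed. The 3 PTP4A genes together gave 107 FPKM in clone 1, 86.3 in clone 2 and 92.3 in WT after PRL1 siRNA, against 143, 127 and 136 FPKM after control siRNA. The sum kept 70.3% ± 4.34 of its control level (SD, n = 3 lines), so most PTP4A transcript remained in each line. The siRNA target is part of this sum. In the clones, labelled PRL2-/-; PRL1+/-, the sum also counts transcript of disrupted genes, so it does not measure PRL protein. PTP4A1 made up 35.2%, 43.8% and 35.9% of the sum after PRL1 siRNA, against 43.3%, 55.0% and 46.6% after control siRNA, in the order clone 1, clone 2 and WT. PTP4A2 made up nearly all of the rest, and PTP4A3 at most 0.456% of the sum in any library.

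The 4 CNNM genes together gave 21.4 FPKM in clone 1, 18.2 in clone 2 and 24.5 in WT after PRL1 siRNA, against 20.2, 16.3 and 20.1 FPKM after control siRNA. The sum was at 113% ± 8.24 of its control level (SD, n = 3 lines), higher in each line, and the groups overlapped. CNNM4 held 53.5%, 49.1% and 56.9% of it after PRL1 siRNA, against 58.5%, 55.6% and 59.5% after control siRNA. CNNM3 held 40.9%, 41.2% and 37.7% after PRL1 siRNA, against 36.0%, 36.9% and 35.1% after control siRNA. There were 5.02, 4.75 and 3.76 PTP4A transcripts by FPKM for each CNNM transcript after PRL1 siRNA, against 7.05, 7.78 and 6.78 after control siRNA. The siRNA target is part of this ratio, so its fall is built in, and in the clones the ratio counts transcript of disrupted genes.

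**Figure D3:**
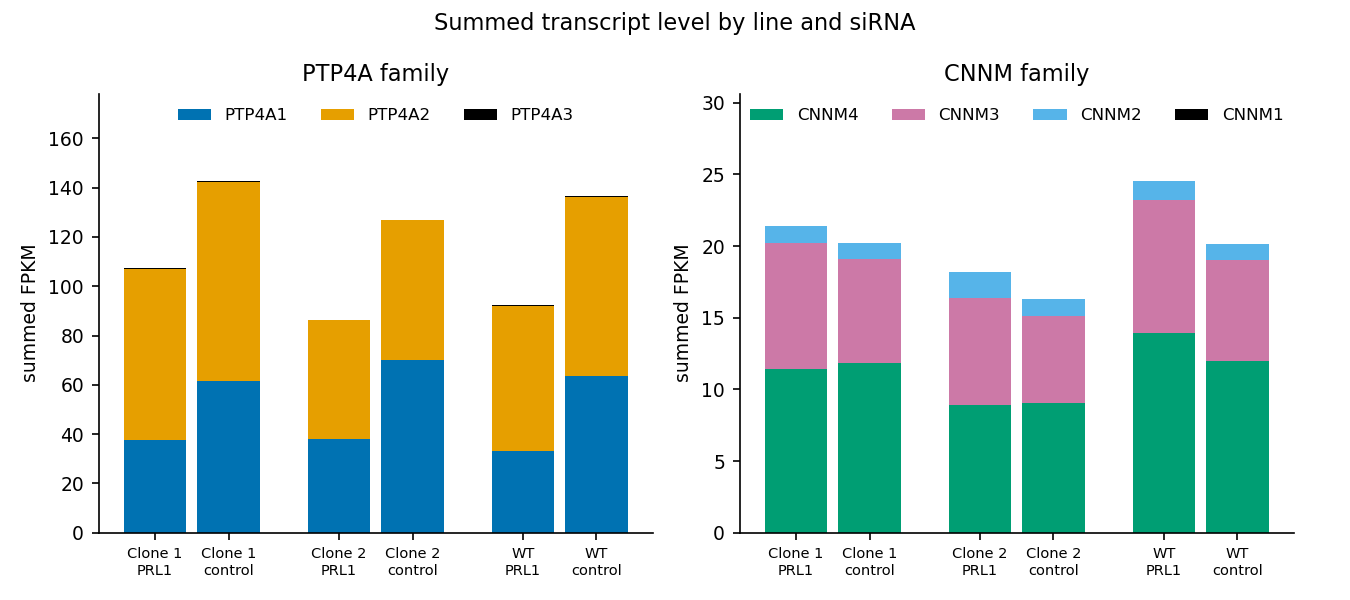
Summed FPKM (vertical axis, starting at 0) of the PTP4A genes (left) and CNNM genes (right) by line, with the PRL1 siRNA library left of the control siRNA library. The PTP4A sums are 86.3 to 107 FPKM after PRL1 siRNA and 127 to 143 FPKM after control siRNA, while the CNNM sums are 18.2 to 24.5 and 16.3 to 20.2 FPKM.

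The second comparison set the PRL2-/-; PRL1+/- clones against WT. Its fit counted the libraries of the same clone under PRL1 and control siRNA as independent. No member passed the test under either siRNA. Transcripts of both disrupted genes were present in the clones. Under control siRNA PTP4A1 averaged 65.8 ± 5.79 FPKM in the clones (SD, n = 2) and was 63.5 FPKM in WT, and PTP4A2 averaged 68.6 ± 16.7 FPKM in the clones (SD, n = 2) and was 72.7 FPKM in WT. The log2 difference was 0.05 ± 0.10 for PTP4A1 (SE, 95% interval -0.23 to 0.32, limma adjusted p = 0.873). For PTP4A2 it was -0.10 ± 0.31 (SE, 95% interval -0.98 to 0.77, limma adjusted p = 0.920). The interval of PTP4A2 is wide, since the clones lay far apart. A short insertion or deletion can leave transcript abundance as it was, so these levels are no check of the labelled genotype.

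PTP4A2 lay on opposite sides of WT in the clones. In clone 1 it was at 117% of the WT level after PRL1 siRNA and 111% after control siRNA, and in clone 2 at 82.0% and 78.0%. PTP4A1 after PRL1 siRNA was at 114% of the WT level in clone 1 and in clone 2 alike. Its log2 difference of 0.19 ± 0.10 did not pass (SE, limma adjusted p = 0.457).

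ARL15, CNNM3 and CNNM4 had lower means in the clones than in WT, without passing, and CNNM2 did not. ARL15 was at 88.3% and 84.2% of the WT level in clone 1 and clone 2 after PRL1 siRNA, and at 82.4% and 81.9% after control siRNA, so the clones lay close together and both were below WT under both siRNAs, as for 19.9% of all genes. Its log2 differences were -0.18 ± 0.09 after PRL1 siRNA and -0.24 ± 0.09 after control siRNA (SE, limma adjusted p = 0.440 and 0.388). CNNM4 was at 81.9% and 63.9% of the WT level after PRL1 siRNA, and at 98.9% and 75.8% after control siRNA, with log2 differences of -0.43 ± 0.22 and -0.19 ± 0.22 (SE, limma adjusted p = 0.443 and 0.753). CNNM3 averaged 8.12 ± 0.902 FPKM in the clones (SD, n = 2) and was 9.25 FPKM in WT after PRL1 siRNA. After control siRNA it averaged 6.65 ± 0.885 FPKM in the clones (SD, n = 2) and was 7.07 FPKM in WT, and its log2 differences of -0.17 ± 0.16 after PRL1 siRNA and -0.08 ± 0.16 after control siRNA did not pass (SE, limma adjusted p = 0.648 and 0.859). For CNNM2 they were 0.09 ± 0.20 after PRL1 siRNA and 0.06 ± 0.20 after control siRNA (SE, limma adjusted p = 0.858 and 0.926).

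With 1 WT library per siRNA, whose spread was assumed to be that of the clones, limma called 0 of 12125 genes (0%) under each siRNA. At an unadjusted p under 0.05 there were 1798 genes (14.8%) after PRL1 siRNA and 1632 (13.5%) after control siRNA, and no member was among them.

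The clones were also compared with each other, averaged over both siRNAs. Clone 1 had more PTP4A2 and CNNM4 transcript than clone 2, while PTP4A1, CNNM2, CNNM3 and ARL15 did not pass. In this fit limma called 14.5% of all genes, 7.79% higher in clone 1 and 6.73% lower; the count of 1760 genes became 299 to 531 without 1 of the 4 clone libraries. Its error is how unequally the 3 lines responded to the siRNA, not the spread between cultures of a clone.

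PTP4A2 was at 69.1 and 80.4 FPKM in clone 1 after PRL1 and control siRNA, against 48.3 and 56.7 FPKM in clone 2. Clone 1 was thus at 143% and 142% of clone 2 under these siRNAs, and its libraries lay above those of clone 2 without overlap, as for 22.9% of all genes. The log2 difference was 0.50 ± 0.04 (SE, 95% interval 0.39 to 0.61, limma adjusted p = 0.00283). The adjusted p was 0.0537 without the knockdown library of clone 1 and 0.0729 with no filter on low genes. CNNM4 in clone 1 was at 128% and 130% of clone 2 after PRL1 and control siRNA, a log2 difference of 0.34 ± 0.08 (SE, limma adjusted p = 0.0412). That call stood close to the threshold: the adjusted p was 0.0503 after median scaling, 0.0598 with no intensity trend, 0.202 with no filter on low genes and 0.131 to 0.293 without 1 of the 4 clone libraries.

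CNNM3 in clone 1 was at 117% and 121% of clone 2 after PRL1 and control siRNA, and its log2 difference of 0.22 ± 0.06 (SE, 95% interval 0.08 to 0.36) missed the threshold (limma adjusted p = 0.0582), which it passed on the TPM scale, with each library rescaled to a common sum (adjusted p = 0.0492, the lowest of a range of 0.0492 to 0.358 over the alternatives). CNNM2 leaned the other way, at 67.3% of clone 2 after PRL1 siRNA and 90.2% after control siRNA (-0.21 ± 0.10, SE, limma adjusted p = 0.231). PTP4A1 was at 99.9% of clone 2 after PRL1 siRNA and 88.3% after control siRNA (-0.09 ± 0.06, SE, limma adjusted p = 0.394), and ARL15 at 105% and 101% (0.03 ± 0.06, SE, limma adjusted p = 0.771).

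**Figure D4:**
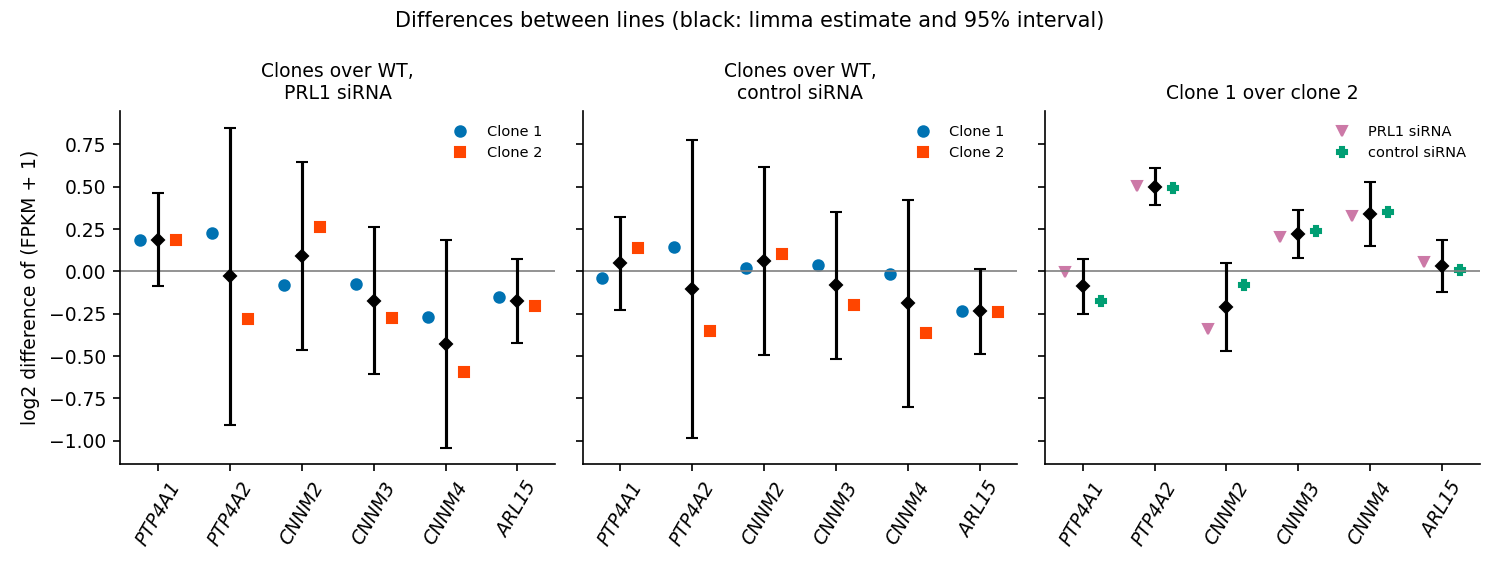
Differences between lines on the log2(FPKM + 1) scale (vertical axis) for the 6 tested genes: clones over WT after PRL1 siRNA (left) and control siRNA (middle), and clone 1 over clone 2 (right). Coloured points are single pairs of libraries and black diamonds the limma estimates with 95% intervals. The intervals of the first 2 panels all hold 0, and in the right panel PTP4A2 lies at 0.50, CNNM4 at 0.34 and CNNM3 at 0.22.

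The response to PRL1 siRNA was then compared between the clones and WT. No member passed. The response in the clones minus that in WT was 0.14 ± 0.14 on the log2 scale for PTP4A1, 0.08 ± 0.44 for PTP4A2, -0.09 ± 0.22 for CNNM3 and -0.24 ± 0.31 for CNNM4 (SE, limma adjusted p = 1.00 for each). For CNNM2 it was 0.03 ± 0.28 and for ARL15 0.06 ± 0.13 (SE, limma adjusted p = 1.00). PTP4A1 kept 61.2% and 54.1% of its control level in the clones and 52.1% in WT, and the interval of that difference ran from -0.25 to 0.53. With the line as a block the SE was 0.09 for PTP4A1, 0.06 for PTP4A2, 0.08 for CNNM3 and 0.08 for CNNM4. It was 0.19 for CNNM2 and 0.10 for ARL15. The fit of 4 groups counts the lasting difference between the clones as error, so its SEs do not show how alike the responses were. Limma called 0 of 12125 genes (0%), with 136 (1.12%) at an unadjusted p under 0.05. CNNM4 lay above control in WT and below it in both clones, as did 14.3% of all genes in this or the opposite sense. With the line as a block it called 1 gene, which was no member, or 0.00825% of genes, and the adjusted p of CNNM4 was then 0.473.

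Other genes of magnesium transport were called about as often as genes at large after PRL1 siRNA. Of 18 genes listed for magnesium transport outside the CNNM family, not all of them established channels or transporters, 17 were tested. NIPAL4 lay below the minimum level. Of the 17, 2 were higher, 5 were lower and 10 did not pass, where 39.3% of all genes were called, 17.6% higher and 21.7% lower. The list had a median log2 difference of -0.05 against -0.01 over all genes. SLC41A1, a sodium-dependent magnesium exporter, rose by 0.55 ± 0.05 (SE, limma adjusted p = 0.00174), and the NIPA-like gene NIPAL3 rose by 0.36 ± 0.05 (SE, limma adjusted p = 0.00439). MAGT1, a subunit of the oligosaccharyltransferase also described as a magnesium transporter, was at -0.36 ± 0.05 and the magnesium transporter gene NIPA1 at -0.36 ± 0.07 (SE, limma adjusted p = 0.00532 and 0.0126). TRPM6, the apical magnesium channel of the distal convoluted tubule, fell by 0.28 ± 0.06 (SE, limma adjusted p = 0.0227). It was at 1.55 FPKM in clone 1, 1.30 in clone 2 and 2.41 in WT after PRL1 siRNA, against 2.19, 1.74 and 3.07 FPKM after control siRNA.

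SLC41A3, a mitochondrial magnesium exporter, was at 0.29 ± 0.10 and did not pass (SE, limma adjusted p = 0.0628). The other members that fell were SLC41A2 (-0.27) and NIPAL1 (-0.12), named after their values were seen. The count of lower genes in this list followed the calls over all genes, which were 4762 in the main fit. Without 1 of the clone libraries it was 1, where 1721 to 2450 of all genes were called. Without 1 of the WT libraries it was 3, where 4046 to 4095 genes were called. With no filter on low genes it was 0, where 1179 of 27931 genes were called. With genotype in place of line it was 2 with 1 higher, where 1710 genes (14.1%) were called. PRL proteins need a farnesyl group and trimming of their C-terminal end to reach membranes. Of the 4 genes for these steps, 0 passed, where 39.3% of all genes did: the farnesyltransferase subunits FNTA (-0.11) and FNTB (-0.03), the protease RCE1 (0.07) and the methyltransferase ICMT (-0.13), with limma adjusted p-values of 0.121 to 0.704.

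**Figure D5:**
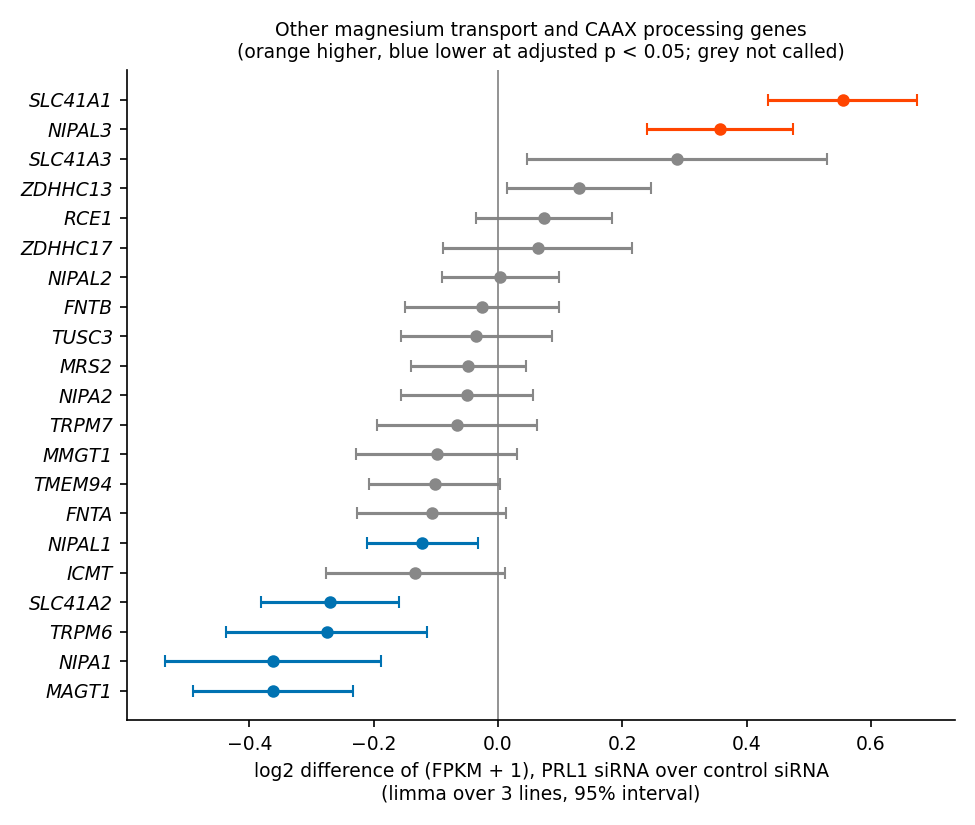
Difference between PRL1 siRNA and control siRNA on the log2(FPKM + 1) scale (horizontal axis) for 17 magnesium transport genes outside the CNNM family and 4 CAAX processing genes, with the limma 95% interval over 3 lines. SLC41A1 at 0.55 and NIPAL3 at 0.36 are called higher, and MAGT1, NIPA1, TRPM6, SLC41A2 and NIPAL1 lower.

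Profiles like those of the abundant members were sought among 8451 annotated genes that averaged 5 FPKM or more, by the root-mean-square difference of log2(FPKM + 1) over the 6 libraries after subtracting the mean of each gene. The nearest to PTP4A1 were SEC61G, a subunit of the protein translocon of the endoplasmic reticulum (0.0477), MAPK1IP1L (0.0659) and IMPACT, an inhibitor of the stress kinase GCN2 (0.0688). SEC61G was at 68.5 FPKM in clone 1, 75.0 in clone 2 and 66.8 in WT after PRL1 siRNA, against 120, 134 and 124 FPKM after control siRNA. The nearest to PTP4A2 were LMO4, a LIM-only transcriptional regulator (0.0267), the ciliary gene CFAP206 (0.0418) and DOCK5, an activator of the GTPase Rac (0.0467). LMO4 was at 24.0 FPKM in clone 1, 16.4 in clone 2 and 19.7 in WT after PRL1 siRNA, against 26.4, 19.0 and 24.7 FPKM after control siRNA. These genes were picked for their likeness, so that they follow the same libraries is no result.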

How the data were processed

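The deposited values are FPKM, computed by the authors for each symbol in each library. HISAT2 2.1.0, Cufflinks 2.2.1 and Cuffdiff are named, per the submitters' processing notes, and per the labels' protocols libraries came from a TruSeq stranded mRNA kit. Genome build, annotation and strand setting of the quantification: not given in the sources used here. Overlapping or antisense genes could therefore hold fragments of each other, and positions are left out. RefSeq names matched 38797 of 41401 symbols, from assembly UU_Cfam_GSD_1.0. Sequences of the members and of the siRNA were not used here.

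Tests used limma 3.58.1 (R 4.3.3) on log2(FPKM + 1) with an intensity trend, over the 12125 genes averaging 1 FPKM or more, with Benjamini-Hochberg adjustment over all of them at 0.05. Fold changes of low genes are understated on this scale. The siRNA effect and the clones were compared in a fit of line and siRNA with 2 residual degrees of freedom. Clones and WT, and their responses, were compared in a fit of 4 groups, which counts the libraries of a clone as independent. Libraries of a line are paired because they come from the same cell line, and the deviations of same-clone libraries from their group means correlated across genes (r = 0.595). The procedure was tested on simulated data with equal baselines in all lines, planted effects and independent noise. Lasting differences between clones, as a source of error in the fit of 4 groups, were not simulated.

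Members and lists were chosen with earlier results of these data known. The text names all members, up to 6 genes per list by size of the siRNA effect, and the 3 nearest profiles of PTP4A1 and PTP4A2.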

Additional observations from a re-analysis of the deposited data

Results flagged for a closer look

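CNNM4 was higher after PRL1 siRNA in WT and lower in both clones, with log2 differences of -0.05 in clone 1, -0.02 in clone 2 and 0.21 in WT. Of all genes tested, 14.3% had clones and WT on opposite sides in this way. The difference between the responses was -0.24 (limma adjusted p = 1.00, and 0.473 with the line as a block), so the opposite signs did not pass a test.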

How the results depend on the processing

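PTP4A1 remained called after PRL1 siRNA under every alternative run, with log2 differences of -0.89 to -0.78 when 1 library was left out. PTP4A2 did too, except with genotype in place of line (no replicate block), and the CNNM3, PTP4A2 and CNNM4 calls that were lost are given with their values above. CNNM3 in clone 1 over clone 2 was the only call on a member gained under an alternative, on the TPM scale. ARL15 in clones over WT after control siRNA was not called under these alternatives. Its unadjusted limma p was under 0.05 with median scaling, no intensity trend, no filter on low genes and the TPM scale. Pairing changed no other call on a member.

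Counts of genes depended most on the filter. With no filter on low genes the siRNA comparison called 1179 genes (4762 with the filter), clone 1 over clone 2 called 4 (1760), clones over WT 240 after PRL1 siRNA and 165 after control siRNA (0 each), and clones minus WT in response 157 (0). With no intensity trend, clones over WT after control siRNA and the difference in response called 4 genes each. Without the replicate block the siRNA comparison called 1710 genes, and with the block the difference in response called 1. Leaving out 1 library gave 1721 to 4095 genes for the siRNA comparison and 299 to 2164 for clone 1 over clone 2, and 0 in the other comparisons. The cause of these shifts was not tested.

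Signs turned only for differences that were not called. Rescaling each library to a common FPKM sum (TPM scale), an alternative chosen after seeing the data, turned clones over WT after control siRNA to -0.065 for PTP4A1 and -0.00058 for CNNM2. Leaving out 1 library gave, after PRL1 siRNA against control siRNA, -0.035 to 0.091 for CNNM4. For clones over WT it gave -0.28 to 0.22 (PTP4A2) and -0.077 to 0.26 (CNNM2) after PRL1 siRNA, and -0.041 to 0.14 (PTP4A1), -0.35 to 0.14 (PTP4A2) and -0.20 to 0.037 (CNNM3) after control siRNA. For clone 1 over clone 2 it gave -0.19 to 0.012 (PTP4A1) and -0.0025 to 0.064 (ARL15), and for the difference in response -0.18 to 0.33 (PTP4A2), -0.14 to 0.20 (CNNM2) and -0.21 to 0.026 (CNNM3). Comparisons that need a left-out WT library could not be fitted without it. Absolute depth is unknown, which limits what can be said of PTP4A3 and CNNM1.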
